A study of Drosophila melanogaster with 21 samples.

Results

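The normal gene expression programmes of the brain and the ovary of the adult Drosophila melanogaster female are compared here, from 5 of the 21 samples of the series. The 5 samples are those whose labels give the genotype as wt and the tissue as brain (2 libraries) or ovary (3 libraries), and no mutant library was used. The series asks what the transcription factor CG11247, also called Saft, does in brain, ovary and S2 cells. Both tissues came from the same stock, isogenised white flies written w;;; in the labels and the parent of the mutants, so the white mutation is shared by all 5 libraries. Females were kept with males on yeasted apple juice plates for 2 days, dissected at 3 to 4 days of age and reared at 25 °C with 12 h of light. Each brain library pooled 40 brains and each ovary library pooled 5 ovary pairs, so the spread between libraries is a spread between pools and not between flies. Ribosomal RNA was removed before library making, from 0.5 µg of total RNA in brain and 1 µg in ovary, and both tissues were made into libraries with the same kit that keeps the strand. Tissue, dissection, RNA input and table of values change together here and cannot be told apart.

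The fly brain is made of neurons that signal through synaptic vesicles, transmitter receptors, ion channels and neuropeptides, and of glia that wrap neurons, recycle transmitter and form the blood-brain barrier. The ovary is a string of egg chambers in which germline cells proliferate, replicate their DNA, recombine it and load the oocyte with maternal RNA through nurse cells, while somatic follicle cells shape the chamber and secrete the vitelline membrane and the chorion of the eggshell. Germline cells also silence transposons with the piRNA pathway, in which PIWI proteins carry small RNAs.

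The files gave estimated read counts per gene, with totals of 43329287 and 43359329 in the brain libraries, against 14840715, 14099168 and 18765624 in the ovary libraries. Levels are given in CPM, the count relative to the size of its library, after scaling by the trimmed mean of M-values (TMM), with ± for the SD over the 2 brain or 3 ovary libraries. Changes are log2 of brain over ovary with ± for the standard error, so a positive change is higher in brain, and adjusted p-values are from the quasi-likelihood test of edgeR with Benjamini-Hochberg adjustment over all tested genes. The labels do not say that libraries of a tissue came from separate dissections, and p-values cover only the differences among these pools. On log2(CPM + 1), the correlation across genes, which are not independent replicates, was 0.998 between the brain libraries, 0.995 to 0.998 between ovary libraries and 0.678 to 0.684 between a brain and an ovary library.

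The tissue labels were checked with 4 neural and 4 germline genes. The neuronal RNA-binding protein gene elav had 818 and 791 CPM in the brain libraries, against 4.61, 3.64 and 4.39 CPM in the ovary libraries. The vesicle fusion gene nSyb had 1684 and 1727 CPM in the brain libraries, against 0.171, 0.0607 and 0 CPM in the ovary libraries. The active zone scaffold gene brp had 2742 and 2643 CPM in the brain libraries, against 0.569, 0.546 and 0.179 CPM in the ovary libraries. Each of these 3 neuronal genes was high in both brain libraries and near 0 in every ovary library. The glial master regulator repo averaged 304 ± 11.3 CPM in brain and 0.0298 ± 0.0517 CPM in ovary. Of the germline genes, the RNA helicase gene vas had 0.329 and 0.176 CPM in the brain libraries, against 354, 318 and 357 CPM in the ovary libraries. The translational repressor gene nanos had 0.239 and 0.118 CPM in the brain libraries, against 708, 688 and 717 CPM in the ovary libraries. Both were near 0 in the brain libraries and high in the ovary libraries, with no overlap. The posterior determinant osk averaged 0.135 ± 0.190 CPM in brain and 1023 ± 62.6 CPM in ovary. The differentiation factor bam averaged 0.0448 ± 0.0634 CPM in brain and 57.3 ± 1.56 CPM in ovary. All 8 genes were called in the direction their tissue gives. CG11247 itself (FBgn0037120) had 111 and 116 CPM in the brain libraries, against 51.1, 48.7 and 55.4 CPM in the ovary libraries, with no overlap (log2 change 1.13 ± 0.07, adjusted p = 7.0e-07).

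The tissues differed in most genes. Of 13955 genes in the joined table, 9621 passed the filter on low counts and were tested, 1385 had no counts in any library, and 8698 of the tested genes, 90.4%, were called at an adjusted p under 0.05. Of these, 4487 (46.6% of tested genes) were higher in brain and 4211 (43.8%) were higher in ovary, and 8693 of the 8698 had no overlap between brain and ovary libraries. With so high a share called, a call alone says little about a gene, so a 4-fold call is used below, which asks for an adjusted p under 0.05 and an estimated change of at least 4-fold. In all, 2670 genes (27.8%) were 4-fold higher in brain and 1375 (14.3%) were 4-fold higher in ovary. A call above 100-fold was made for 1156 genes higher in brain and 254 higher in ovary. The median log2 change over tested genes was 0.07, and the median size of the change, in either direction, was 1.58 on the log2 scale.

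The genes of each tissue filled very different shares of its libraries. The genes 4-fold higher in brain held 52.6% and 52.4% of the counts of the brain libraries, against 3.80%, 3.71% and 3.80% of the counts of the ovary libraries. The genes 4-fold higher in ovary held 1.54% and 1.59% of the brain counts, against 25.9 to 26.6% of the ovary counts. At 1 CPM or more in each library of a tissue, brain had 8829 genes and ovary 7394, with 6951 in all 5 libraries. There were 217 genes at a mean of 10 CPM or more in brain with no counts in ovary, and 29 at that level in ovary with no counts in brain. A count of 0 over the 3 ovary libraries allows a level of up to 0.0532 CPM and a count of 0 over the 2 brain libraries up to 0.0445 CPM, from a floor of 3 counts per tissue that covers counting error only.

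**Figure D1:**
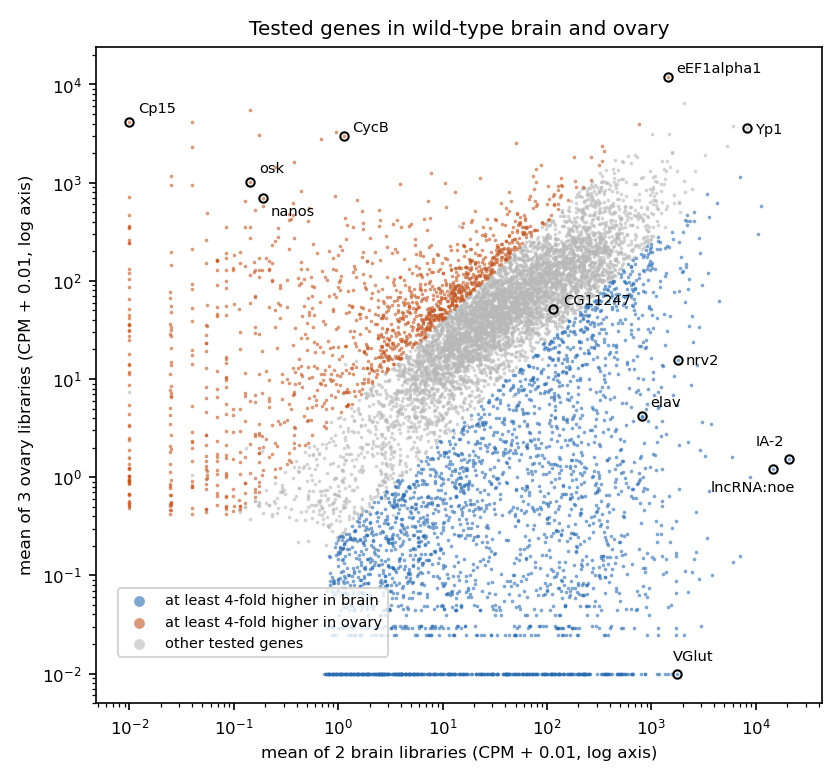
Mean CPM of each of the 9621 tested genes in the 2 brain libraries (horizontal) and the 3 ovary libraries (vertical), both on log axes after adding 0.01, with the 2670 genes 4-fold higher in brain in blue, the 1375 genes 4-fold higher in ovary in orange and the others in grey. Many blue genes lie on the lower edge, where ovary has 0 counts, VGlut among them, while Cp15 lies on the left edge, where brain has 0 counts.

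Directions of small changes depend on the scaling, since the tissues differ so widely. The median change of all genes moved by 0.13 on the log2 scale with size factors by relative log expression and with DESeq2, by -0.35 with upper-quartile scaling and by -0.60 with library size alone. Brain took 51.6% of all calls and 66.0% of the 4-fold calls under TMM, against 40.4% and 53.6% with library size alone. In bulk tissue, fewer cells of a type and less RNA per cell cannot be told apart.

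At the top of the brain list stood genes with no ovary counts at all. The 10 genes of largest change with a mean of at least 50 CPM were VGlut, Dscam2, CG14989, Rdl, wry, Fife, CG43737, Syt4, 2mit and hbt, and all 10 had 0 counts in each ovary library. VGlut, the transporter that loads glutamate into synaptic vesicles, had 1755 and 1782 CPM in the brain libraries, against no counts in the ovary libraries (at least 33259.6-fold higher in brain, adjusted p = 1.8e-09). Dscam2, a cell surface protein gene, averaged 1568 ± 17.4 CPM in brain (at least 29475-fold higher). Fife, an active zone protein, averaged 1120.3 ± 4.64 CPM (at least 21065-fold higher), and Syt4, a postsynaptic synaptotagmin, averaged 874 ± 7.90 CPM (at least 16432-fold higher). The gene CG14989, known here by its number alone, averaged 1452 ± 78.8 CPM in brain.

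Per kb of exon, which allows levels of different genes to be compared, the brain was led by the long noncoding RNA gene lncRNA:noe, then by the yolk protein genes described below, by the mitochondrial genome genes mt:CoI and mt:CoIII (3468 and 2625 CPM per kb in brain) and by genes of neurons and glia. lncRNA:noe had 14443 and 15077 CPM in the brain libraries, against 1.59, 0.910 and 1.12 CPM in the ovary libraries (log2 change 13.57 ± 0.15, adjusted p = 8.5e-11), and stood at 13705 ± 417 CPM per kb in brain and 1.12 ± 0.325 CPM per kb in ovary. It was the most abundant in brain of 11 tested lncRNA and antisense RNA genes, of which 6 were 4-fold higher in brain and 2 in ovary. Obp44a, an odorant-binding protein gene, stood at 2255 ± 206 CPM per kb in brain and 0.0905 ± 0.0816 CPM per kb in ovary. IA-2, related to a human protein of dense core vesicles, stood at 2028 ± 37.9 CPM per kb in brain and 0.149 ± 0.0196 CPM per kb in ovary, and had the largest CPM of the genes in the brain table, 20797 ± 389 CPM. Atpalpha, the catalytic subunit of the sodium pump, stood at 1683 ± 36.1 CPM per kb in brain and 86.9 ± 1.53 CPM per kb in ovary, and Gs2, the glutamine synthetase of glia, at 1227 ± 21.4 CPM per kb in brain and 6.26 ± 2.74 CPM per kb in ovary.

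The machinery of synaptic release was far higher in brain than in ovary libraries. Of 38 genes listed for neurons and synaptic vesicles, 37 were tested, all 37 were higher in brain and 32 were 4-fold higher, against 46.6% and 27.8% of all tested genes. Their median log2 change was 10.05, beside 0.07 over all tested genes. The list was led by Atpalpha with 11241 CPM in brain and 580.4 CPM in ovary, by the microtubule-associated protein gene futsch with 5962 ± 434 CPM in brain and 1.59 ± 0.287 CPM in ovary (log2 change 11.88 ± 0.13, adjusted p = 7.7e-11), and by stnB, which retrieves vesicle proteins by endocytosis, with 3689 ± 54.1 CPM in brain and 3.47 ± 0.0619 CPM in ovary (log2 change 10.05 ± 0.08, adjusted p = 6.8e-11). The calcium sensor of release, Syt1, had 3411 and 3372 CPM in the brain libraries, against 0.171, 0.425 and 0.0895 CPM in the ovary libraries. The vesicle priming gene unc-13 had 3466 and 3439.9 CPM in the brain libraries, against 125, 109 and 124 CPM in the ovary libraries, so that ovary kept a level above 100 CPM in each library although the change was large (log2 change 4.86 ± 0.08, adjusted p = 4.5e-10).

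Genes of each major transmitter system were represented in brain. Of 23 genes for making, loading, taking up or breaking down transmitters, 22 were 4-fold higher in brain and none in ovary, and the median log2 change was 9.99 with genes of 0 to 3 counts in ovary set to their bound. For acetylcholine, the synthetic enzyme gene ChAT had 409.7 and 389.9 CPM in the brain libraries, against no counts in the ovary libraries (at least 7516-fold higher), and Ace, which breaks acetylcholine down, averaged 1725 ± 37.9 CPM in brain and 0.349 ± 0.229 CPM in ovary. ChAT shares its first exon with the vesicular transporter gene VAChT (1735 CPM in brain and 0.0149 CPM in ovary), so how reads were divided between them is uncertain. For GABA, the synthetic enzyme gene Gad1 had 2052 and 2035 CPM in the brain libraries, against 0, 0 and 0.0447 CPM in the ovary libraries, a single read count over the 3 ovary libraries. For monoamines, the vesicular transporter gene Vmat averaged 1604 ± 40.4 CPM in brain and 6.89 ± 0.193 CPM in ovary (log2 change 7.86 ± 0.07, adjusted p = 6.8e-11), and the dopamine-synthesis gene ple averaged 75.5 ± 1.36 CPM in brain and 0.313 ± 0.115 CPM in ovary. The serotonin-synthesis gene Trhn averaged 54.0 ± 1.61 CPM in brain with no counts in ovary. The octopamine-synthesis gene Tbh averaged 189 ± 7.32 CPM in brain and 0.0880 ± 0.0266 CPM in ovary, and Hdc, which makes histamine, averaged 17.3 ± 1.73 CPM in brain and 0.0607 ± 0.105 CPM in ovary. The exception was Tdc1, a tyrosine decarboxylase known from outside the nervous system, at 1.82 CPM in brain and 2.17 CPM in ovary and not called.

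Transmitter receptor genes were likewise higher in brain. Of 48 listed receptor genes, 45 were tested and 43 were 4-fold higher in brain, with a median log2 change at bound of 10.91, while the glutamate receptor genes GluRIIC and GluRIID, known from the neuromuscular junction, were not called. Dop2R, a dopamine receptor, had 2882 and 3058 CPM in the brain libraries, against 0, 0.0607 and 0 CPM in the ovary libraries. Rdl, the GABA-gated chloride channel, had 1390.1 and 1297 CPM in the brain libraries, against no counts in the ovary libraries. GluClalpha, the glutamate-gated chloride channel, averaged 731 ± 23.6 CPM in brain and 0.0351 ± 0.0315 CPM in ovary. In the ovary libraries these genes were at or close to 0, and no library came near the brain values. All 10 nicotinic acetylcholine receptor subunit genes were 4-fold higher in brain, led by nAChRalpha5 with 656 ± 1.12 CPM and no counts in ovary (at least 12335-fold higher).

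Most ion channel genes were higher in brain as well. Of 33 voltage-gated and potassium channel genes, 30 were 4-fold higher in brain (median log2 change 9.48), and 3 were called higher in ovary. The sodium channel para, which carries the action potential, had 2269 and 2166 CPM in the brain libraries, against 0.114, 0.0607 and 0 CPM in the ovary libraries. The T-type calcium channel gene Ca-alpha1T averaged 3067 ± 129 CPM in brain and 3.61 ± 0.529 CPM in ovary (log2 change 9.73 ± 0.11, adjusted p = 8.8e-11), and unc80, a subunit of the sodium leak channel complex, averaged 2538 ± 15.8 CPM in brain and 0.137 ± 0.0660 CPM in ovary. The 3 genes higher in ovary were potassium channels. Ork1, a leak channel, had 70.5 and 72.6 CPM in the brain libraries, against 241, 237 and 233 CPM in the ovary libraries (log2 change -1.73 ± 0.05, adjusted p = 1.0e-08). The inward rectifier Irk1 averaged 24.9 ± 0.00426 CPM in brain and 52.6 ± 5.76 CPM in ovary (log2 change -1.08 ± 0.09, adjusted p = 9.8e-06), and sand was low in both tissues, at 0.371 CPM in brain and 1.98 CPM in ovary (log2 change -2.41 ± 0.32, adjusted p = 1.3e-04). Neither Ork1 nor Irk1 overlapped between the tissues, and neither reached 4-fold.

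Many neuropeptide genes had no counts in ovary. Of 47 listed peptide genes, 40 were tested, 35 were 4-fold higher in brain and 2 were 4-fold higher in ovary, with a median log2 change at bound of 8.94. sNPF, which acts in feeding, had 374 and 382 CPM in the brain libraries, against no counts in the ovary libraries (at least 7112-fold higher). Dh44, a diuretic hormone gene of the pars intercerebralis, averaged 217 ± 0.786 CPM in brain with no counts in ovary (at least 4089-fold higher). The clock neuron peptide gene Pdf averaged 76.2 ± 2.57 CPM in brain with none in ovary. The insulin-like peptides of the brain neurosecretory cells, Ilp2, Ilp3 and Ilp5, averaged 206, 90.1 and 98.5 CPM in brain and had no counts in ovary. Ilp8 ran the other way, with 0.0897 and 0.0588 CPM in the brain libraries, against 13.1, 14.6 and 16.2 CPM in the ovary libraries (log2 change -7.54 ± 0.26, adjusted p = 2.6e-08). Ilp8 encodes a relaxin-like peptide known from follicle cells and ovulation, and ETH, the other gene 4-fold higher in ovary, reached only 1.09 CPM there. The processing enzyme gene amon, a prohormone convertase, averaged 1149.8 ± 33.9 CPM in brain and 0.0149 ± 0.0258 CPM in ovary, and its helper 7B2 averaged 523 ± 18.7 CPM in brain with no counts in ovary. By contrast, 2 processing genes of wide use were modestly higher in ovary, Fur2 with 514 CPM in brain and 772 CPM in ovary and Pal1 with 65.0 CPM in brain and 80.9 CPM in ovary. Over the list of 46 peptide processing and peptide receptor genes, 42 were 4-fold higher in brain and none in ovary (median log2 change at bound 7.40).

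**Figure D2:**
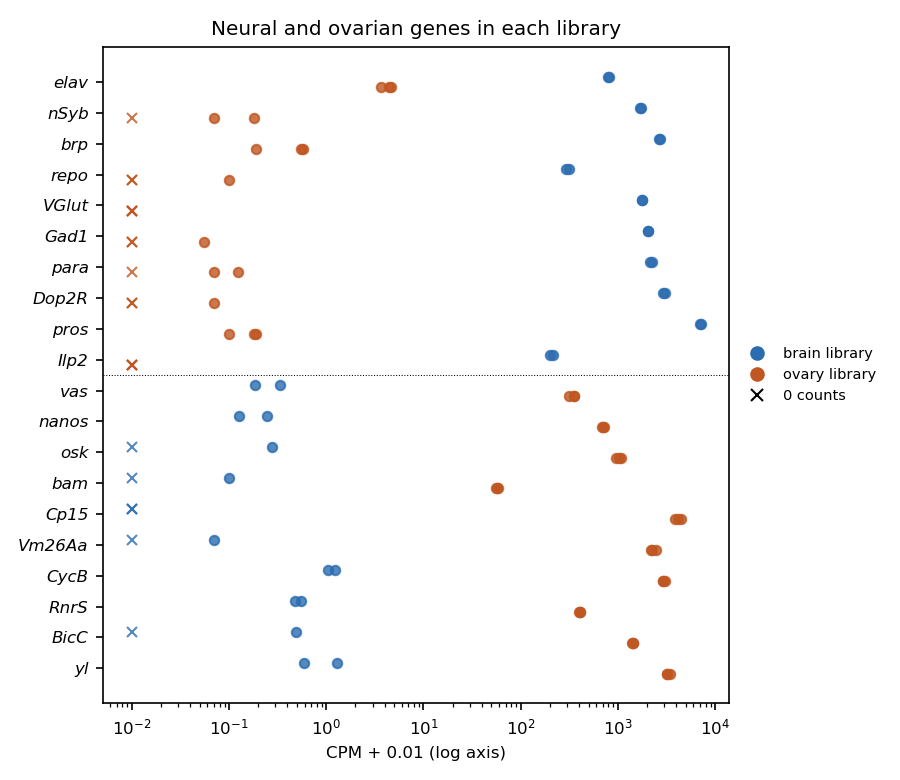
CPM after adding 0.01, on a log axis, in each of the 2 brain libraries (blue) and 3 ovary libraries (orange) for 10 neural genes above the dotted line and 10 ovarian genes below it, with crosses for libraries with 0 counts. Libraries of the tissue where a gene is high lie close together. Values near 0 can lie far apart on this axis, as for BicC in brain (0.478 and 0 CPM). No gene drawn overlaps between tissues.

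Learning genes were higher in brain, and many of them were also well expressed in ovary. Of 22 listed genes 21 were tested, all 21 were higher in brain and 19 were 4-fold higher, with a median log2 change of 3.81. The adenylyl cyclase gene rut averaged 1024 ± 3.36 CPM in brain and 44.6 ± 2.65 CPM in ovary. The phosphodiesterase gene dnc, which breaks down its product, averaged 661 ± 26.8 CPM in brain and 79.1 ± 9.96 CPM in ovary. CaMKII, a kinase of synaptic plasticity, averaged 1102 ± 36.0 CPM in brain and 69.6 ± 3.71 CPM in ovary (log2 change 3.98 ± 0.06, adjusted p = 3.7e-10). The RNA-binding protein gene mub averaged 1831 ± 5.10 CPM in brain and 248 ± 13.9 CPM in ovary (log2 change 2.88 ± 0.06, adjusted p = 2.2e-09). Dop1R1, the dopamine receptor of the mushroom body, was the member with no ovary counts, at 518 ± 27.5 CPM in brain.

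Clock genes were divided. Of 18 listed genes 17 were tested, 13 were higher in brain (8 of them 4-fold), 3 were higher in ovary and 1 was not called. Of all tested genes, 46.6% were higher in brain (27.8% by 4-fold) and 43.8% in ovary. The median log2 change of the list was 1.67. The transcriptional repressor gene per had 126 and 107 CPM in the brain libraries, against 6.54, 6.61 and 8.55 CPM in the ovary libraries. The light receptor gene cry averaged 118 ± 2.73 CPM in brain and 11.9 ± 2.16 CPM in ovary. The transcription activator gene Pdp1 averaged 640.5 ± 42.5 CPM in brain and 36.0 ± 5.68 CPM in ovary (log2 change 4.15 ± 0.12, adjusted p = 2.2e-08). The activator pair did not move together. Clk averaged 25.5 ± 0.815 CPM in brain and 3.45 ± 0.534 CPM in ovary (log2 change 2.87 ± 0.12, adjusted p = 9.6e-08), while its partner cyc had 45.7 and 45.7 CPM in the brain libraries, against 98.5, 97.3 and 94.7 CPM in the ovary libraries (log2 change -1.08 ± 0.05, adjusted p = 1.8e-07), higher in every ovary library. The kinase genes dco (228 CPM in brain and 364 CPM in ovary) and CkIIalpha (103 CPM in brain and 235 CPM in ovary) were also called higher in ovary. The oscillating genes tim and vri differed between the brain libraries, with 133 and 83.4 CPM in the brain libraries, against 24.1, 23.2 and 26.1 CPM in the ovary libraries for tim and 74.9 and 37.9 CPM in the brain libraries, against 16.9, 19.1 and 17.3 CPM in the ovary libraries for vri.

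Glial genes were present at high level in brain. All 17 tested glia markers were higher in brain and 13 were 4-fold higher, with a median log2 change of 6.85. Gs2, glutamine synthetase, had 2703 and 2771 CPM in the brain libraries, against 12.7, 20.6 and 8.59 CPM in the ovary libraries. The glutamate transporter gene Eaat1 averaged 1174 ± 38.9 CPM in brain and 5.26 ± 0.910 CPM in ovary (log2 change 7.82 ± 0.11, adjusted p = 2.3e-10). The blood-brain barrier transporter gene Mdr65 averaged 276 ± 7.98 CPM in brain and 1.03 ± 0.158 CPM in ovary. The astrocyte gene alrm averaged 453 ± 8.85 CPM in brain and 0.959 ± 0.0169 CPM in ovary, and wrapper, a marker of cortex and wrapping glia, averaged 84.8 ± 0.334 CPM in brain and 0.0637 ± 0.0674 CPM in ovary. No ovary library came within 100-fold of either brain library for Gs2.

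Transcription factor genes that set cell identity were for the most part higher in brain. Of 70 homeobox and developmental transcription factor genes found in the table, 62 were tested, 54 were 4-fold higher in brain and 3 were 4-fold higher in ovary, and the median log2 change at bound was 6.93. The 5 of largest change in brain were pros, tup, repo, hbn and onecut. pros, a homeodomain factor that ends neural progenitor division, had 7158 and 6967 CPM in the brain libraries, against 0.171, 0.182 and 0.0895 CPM in the ovary libraries (log2 change 15.55 ± 0.13, adjusted p = 6.8e-11). onecut averaged 1009.8 ± 40.6 CPM in brain and 0.144 ± 0.147 CPM in ovary. The LIM homeodomain gene tup averaged 67.9 ± 0.306 CPM in brain with no counts in ovary (at least 1276-fold higher), and fru, known for sex-specific neural circuits, averaged 585 ± 6.61 CPM in brain and 14.1 ± 2.23 CPM in ovary. The ovary had cad, a maternal homeobox gene of posterior patterning, with 0.120 and 0.0294 CPM in the brain libraries, against 176, 159 and 178 CPM in the ovary libraries (log2 change -11.08 ± 0.18, adjusted p = 4.4e-10). The other genes called higher in ovary, eya, abd-A, Abd-B and zen, averaged 24.5, 2.93, 0.433 and 0.854 CPM there, and the call of Abd-B was lost without brain library 2 (adjusted p = 0.13), with DESeq2 and with the replicate number as a block (both 0.066).

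Cell recognition molecules of the immunoglobulin superfamily, which label neurons that connect to each other, were called higher in brain with few exceptions. All 22 tested beat and side genes and 30 of 32 tested DIP and dpr genes were 4-fold higher in brain, against 27.8% of all tested genes. side-VI averaged 549 ± 7.32 CPM in brain with no counts in ovary (at least 10318-fold higher), and dpr12 averaged 678 ± 13.9 CPM in brain and 0.0190 ± 0.0328 CPM in ovary.

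**Figure D3:**
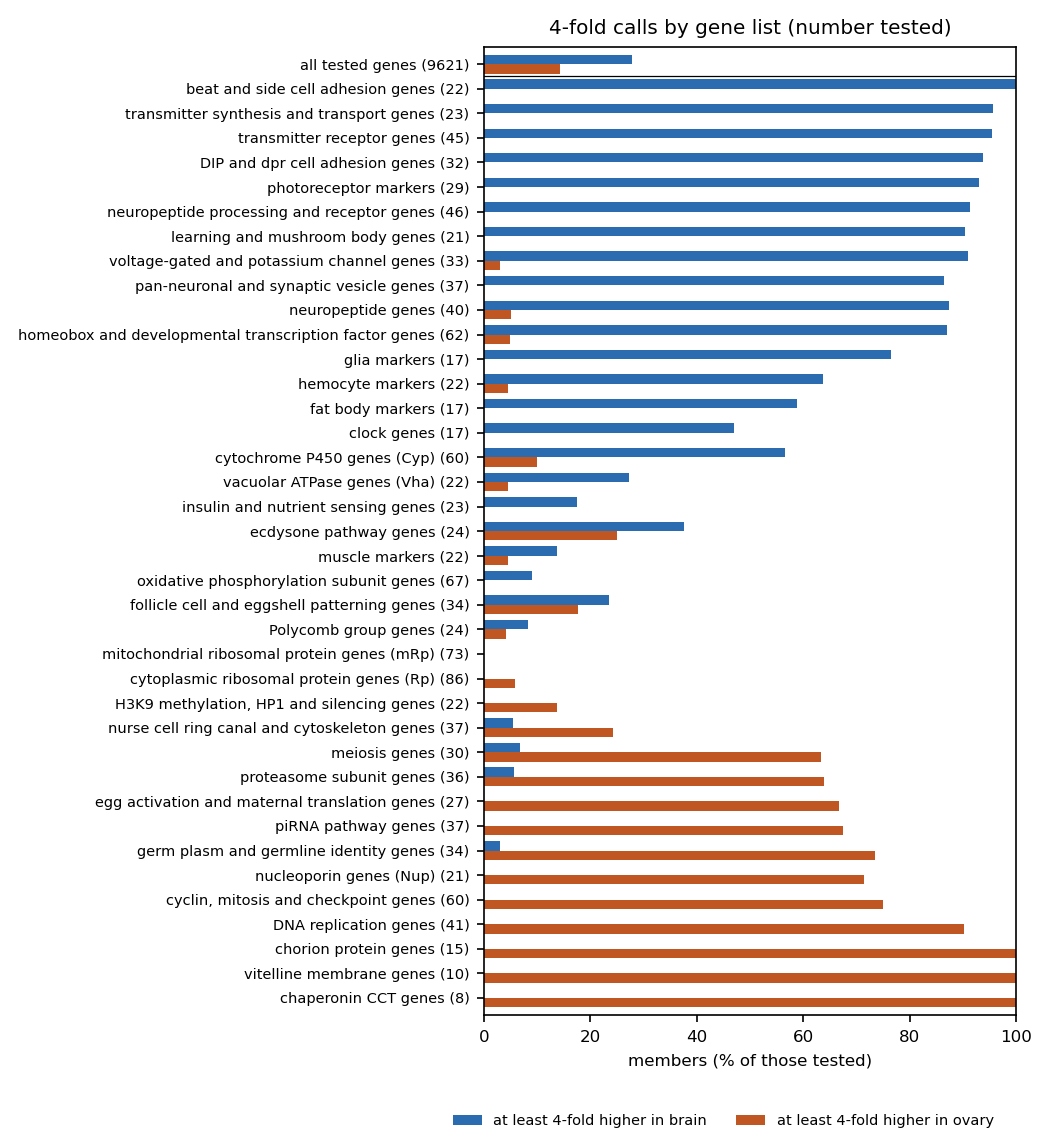
Share of the tested members of each gene list, in percent, that were 4-fold higher in brain (blue) or in ovary (orange), with the number tested in brackets and all 9621 tested genes in the top row. Neural lists run from 47 to 100% in blue, with the clock genes lowest, and the eggshell, replication and chaperonin lists lie at 90% or more in orange, beside 27.8% and 14.3% of all tested genes.

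Marker genes of cell types outside brain tissue proper had counts in the brain libraries, and some of them differed between the brain libraries. Whether this RNA came from such cells or from cells of the brain was not tested. Summed over 9 photoreceptor markers, the brain libraries held 1384 and 629 CPM, against 0.398, 0.182 and 0.179 CPM in the ovary libraries. The main rhodopsin gene ninaE had 395 and 44.5 CPM in the brain libraries, against 0.0569, 0.121 and 0.0447 CPM in the ovary libraries, so its brain libraries differed by more than 8-fold. Over 7 fat body markers the sums were 4569 and 3621 CPM in brain, against 140, 176 and 31.1 CPM in ovary, and over 6 hemocyte markers they were 1145 and 1031 CPM in brain, against 77.0, 71.8 and 78.7 CPM in ovary. The fat body lipoprotein gene apolpp had 3321 and 2775 CPM in the brain libraries, against 119, 125 and 27.0 CPM in the ovary libraries. The hemocyte gene Hml averaged 514 ± 53.6 CPM in brain and 1.91 ± 0.537 CPM in ovary. The GATA factor gene srp, another of the 6, was called higher in ovary, at 17.1 CPM in brain and 59.1 CPM in ovary, and made up most of the ovary sum. Of 22 tested genes of the longer hemocyte list, 17 were higher in brain and 3 in ovary. Rh2, the rhodopsin of the ocelli, differed less between the brain libraries, at 265 ± 32.1 CPM, beside 220 ± 248 CPM for ninaE. Muscle markers were mixed, with sums over 8 genes of 300.0 and 261 CPM in brain, against 382, 378 and 452 CPM in ovary, and none of the 8 was called higher in brain and 5 in ovary. Of 22 tested genes of the longer muscle list, 5 were higher in brain and 12 in ovary (3 and 1 of them 4-fold). Of all tested genes, 46.6% were called higher in brain and 43.8% in ovary, with 27.8% and 14.3% by 4-fold. The muscle gene Obsc averaged 82.7 CPM in brain and 8.49 CPM in ovary. Shorter sets of defining gut, testis, spermatheca and tracheal markers summed to at most 75.3 CPM in any library. Over the longer list of 13 tracheal genes, which includes transcription factors, the sums were 345 and 321 CPM in brain, against 33.4, 36.2 and 36.3 CPM in ovary, led by vvl with 119 CPM in brain and 0.427 CPM in ovary and dpy with 114 CPM in brain and 16.0 CPM in ovary. Over 23 testis and male genes they were 129.8 and 134 CPM in brain, against 12.5, 14.9 and 13.8 CPM in ovary. Most of these sums came from 1 gene, the dosage compensation gene msl-2, with 124 CPM in brain and 9.69 CPM in ovary.

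Yolk protein genes were among the highest in brain, and higher there than in ovary. These 3 genes encode the yolk taken up by the oocyte and are known to be expressed in fat body and in follicle cells. Yp1 had 9316 and 6972 CPM in the brain libraries, against 3667, 4125 and 2967 CPM in the ovary libraries (log2 change 1.18 ± 0.17, adjusted p = 3.8e-04). Yp2 had 6867 and 5166 CPM in the brain libraries, against 3808, 4246 and 3233 CPM in the ovary libraries (log2 change 0.68 ± 0.15, adjusted p = 0.0033). Yp3 had 8050.3 and 6062 CPM in the brain libraries, against 1217, 1501 and 729 CPM in the ovary libraries (log2 change 2.62 ± 0.36, adjusted p = 0.0024). For each of the 3 genes the lowest brain library was above the highest ovary library, and the gap was narrowest for Yp2, whose call was lost with upper-quartile scaling and with library size alone. Per kb of exon, Yp1 stood at 5055 CPM per kb in brain and 2226 CPM per kb in ovary. Fat body markers, given above, were also high in the brain libraries, and their part in the yolk protein levels was not tested. The yolk receptor gene yl, which works in the oocyte membrane, had 1.29 and 0.588 CPM in the brain libraries, against 3173, 3423 and 3212 CPM in the ovary libraries (log2 change -11.77 ± 0.21, adjusted p = 7.3e-10), close to 0 in the brain libraries and high in the ovary libraries.

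Eggshell genes were close to absent from brain and abundant in ovary. All 15 tested chorion genes and all 10 tested vitelline membrane genes were 4-fold higher in ovary, against 14.3% of all tested genes, with median log2 changes at bound of -11.97 and -10.95. Cp15 had no counts in the brain libraries, against 3898, 4181 and 4502 CPM in the ovary libraries (at least 94878-fold higher in ovary). Cp38 had 0.179 and 0.0882 CPM in the brain libraries, against 5596, 5792 and 5166 CPM in the ovary libraries (log2 change -15.28 ± 0.18, adjusted p = 1.0e-10). Vm26Aa, a vitelline membrane protein gene, had 0.0598 and 0 CPM in the brain libraries, against 2177, 2448 and 2227 CPM in the ovary libraries. Over both brain libraries, Cp38 had 9 counts, Vm26Aa had 2 and Cp15 had 0. Of the 10 genes with the largest change toward ovary, Cp15, Cp36, Cp19, Vm26Aa, Vml and yellow-g2 are eggshell genes. Among the others, CG14309 had no counts in brain and averaged 710.1 ± 14.5 CPM in ovary, where CG13084 averaged 355 ± 31.0 CPM and the peroxidase gene CG4009 averaged 341 ± 13.2 CPM. Per kb of exon, Cp15 stood first in ovary with 8142 CPM per kb, and Cp38, Cp18, Cp36 and Vm26Aa were also among its 10 highest genes.

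Most germline identity and RNA localization genes were close to 0 in brain and high in ovary, while a few RNA regulators were high in both. Of 34 genes listed for germ plasm and germline identity, 5 were called higher in brain, 25 were 4-fold higher in ovary and 1 was not called, with a median log2 change of -4.77. The translational repressor gene BicC had 0.478 and 0 CPM in the brain libraries, against 1437, 1411 and 1433 CPM in the ovary libraries (log2 change -12.52 ± 0.39, adjusted p = 5.2e-07). The mRNA localization genes exu and swa averaged 0.431 ± 0.152 CPM in brain and 826 ± 11.7 CPM in ovary and 0.222 ± 0.0603 CPM in brain and 232 ± 5.82 CPM in ovary. The anterior determinant bcd averaged 0.119 ± 0.0852 CPM in brain and 142 ± 1.89 CPM in ovary, and pgc, which silences transcription in the germline precursors, averaged 0.0745 ± 0.0638 CPM in brain and 128 ± 4.91 CPM in ovary. The 5 genes higher in brain bind RNA or move it. pum, a translational repressor, had 1256 and 1191 CPM in the brain libraries, against 504, 468 and 512 CPM in the ovary libraries (log2 change 1.31 ± 0.06, adjusted p = 1.9e-07). Sxl, the master regulator of sex, averaged 760.0 ± 8.55 CPM in brain and 223 ± 17.7 CPM in ovary (log2 change 1.77 ± 0.07, adjusted p = 7.2e-08), and Rbp9, an ELAV family member, averaged 666 ± 3.04 CPM in brain and 3.76 ± 0.256 CPM in ovary. stau averaged 480.0 ± 7.93 CPM in brain and 191 ± 11.6 CPM in ovary, and BicD averaged 358 ± 2.65 CPM in brain and 255 ± 10.5 CPM in ovary, the last a direction that turned with library size alone. tud, the scaffold of the nuage, was not called, at 626 ± 10.7 CPM in brain and 560.3 ± 40.2 CPM in ovary (adjusted p = 0.059), and its direction depended on the scaling.

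The piRNA pathway held genes near 0 in brain and genes found in both tissues. Of 37 genes, 2 were called higher in brain and 34 in ovary, 25 of the 34 by 4-fold, with a median log2 change of -4.09. Of the PIWI genes themselves, 2 were near 0 in brain, piwi with 0.508 and 0.618 CPM in the brain libraries, against 229, 226 and 250.2 CPM in the ovary libraries and AGO3 with 0.223 ± 0.0235 CPM in brain and 99.7 ± 14.8 CPM in ovary, while aub kept a low brain level at 5.10 ± 0.192 CPM in brain and 120.5 ± 0.940 CPM in ovary (log2 change -4.56 ± 0.06, adjusted p = 2.0e-10). The heterochromatin protein rhi, which marks piRNA source loci, had 0.0598 and 0.0882 CPM in the brain libraries, against 16.3, 16.7 and 17.5 CPM in the ovary libraries (log2 change -7.73 ± 0.21, adjusted p = 6.1e-09). Its partner genes del, cuff and moon averaged 8.79, 0.0745 and 0.0743 CPM in brain, against 187, 5.51 and 16.0 CPM in ovary. Genes of wider use differed less. The export factor gene tho2 averaged 145 ± 2.93 CPM in brain and 161 ± 2.96 CPM in ovary (adjusted p = 0.015, a call lost with relative log expression, with DESeq2, with the replicate number as a block, and with adjusted p = 0.11 and 0.052 without brain library 1 and without brain library 2). The methyltransferase gene egg averaged 53.7 ± 3.02 CPM in brain and 90.7 ± 2.84 CPM in ovary, and the tudor gene papi was not called at 38.8 ± 1.37 CPM in brain and 39.2 ± 3.43 CPM in ovary. The egg cofactor gene wde averaged 243 ± 12.0 CPM in brain and 164 ± 8.55 CPM in ovary and Gasz averaged 79.9 ± 0.466 CPM in brain and 68.8 ± 0.261 CPM in ovary, both called higher in brain, directions that turned with library size alone and for Gasz also with upper-quartile scaling.

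Meiosis genes were mostly higher in ovary, with a known regulator of germline differentiation as an exception. Of 33 listed genes 30 were tested, 3 were higher in brain, 26 were higher in ovary (19 of them 4-fold) and the median log2 change was -3.18. The Polo inhibitor gene mtrm averaged 1.04 ± 0.348 CPM in brain and 229 ± 2.44 CPM in ovary (log2 change -7.78 ± 0.13, adjusted p = 4.4e-10), and nod, a kinesin that holds chromosomes on the meiotic spindle, averaged 2.22 ± 0.110 CPM in brain and 195 ± 6.29 CPM in ovary (log2 change -6.45 ± 0.08, adjusted p = 1.3e-10). The synaptonemal complex genes were at lower level, c(3)G with 8.81 ± 0.564 CPM in brain and 31.6 ± 1.17 CPM in ovary, c(2)M with 0.0593 ± 0.000689 CPM in brain and 12.1 ± 0.746 CPM in ovary and corolla with 0.0297 ± 0.000344 CPM in brain and 2.26 ± 0.559 CPM in ovary. mei-P26, a TRIM-NHL protein gene of germline differentiation, had 2206 and 2187 CPM in the brain libraries, against 474, 428 and 493 CPM in the ovary libraries (log2 change 2.24 ± 0.07, adjusted p = 1.8e-08). Each brain library was above each ovary library. mei-W68, the enzyme that starts recombination, was low in both tissues and called higher in brain, at 18.2 ± 1.86 CPM in brain and 5.34 ± 1.07 CPM in ovary.

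Maternal factors for egg activation and early development were strongly represented in ovary. Of 27 listed genes, 25 were higher in ovary, 18 of them 4-fold, and the median log2 change was -6.71. The translational repressor gene smg had 177 and 187 CPM in the brain libraries, against 1852, 1751 and 1933 CPM in the ovary libraries (log2 change -3.34 ± 0.08, adjusted p = 2.3e-09). The kinase gene png, which releases maternal mRNAs for translation, had no counts in brain and averaged 51.4 ± 2.18 CPM in ovary (at least 1156-fold higher in ovary), and its partner gnu averaged 0.0593 ± 0.000689 CPM in brain and 162 ± 6.21 CPM in ovary. wisp, a cytoplasmic poly(A) polymerase, averaged 1.66 ± 0.397 CPM in brain and 516 ± 38.5 CPM in ovary. The receptor gene tor averaged 0.0446 ± 0.0215 CPM in brain and 151 ± 2.52 CPM in ovary, and ndl, a protease of dorsal-ventral patterning, averaged 0.326 ± 0.0457 CPM in brain and 413 ± 28.8 CPM in ovary. The exceptions were the calcineurin gene CanA-14F (609 CPM in brain and 179.8 CPM in ovary) and the calcineurin regulator gene sra (141 CPM in brain and 66.1 CPM in ovary), both called higher in brain.

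DNA replication genes were low in brain and high in ovary. Of 41 tested genes, 40 were higher in ovary, 37 of them 4-fold, with a median log2 change of -4.21, and chif was not called. RnrS, a ribonucleotide reductase subunit gene, had 0.538 and 0.471 CPM in the brain libraries, against 408, 404 and 399.9 CPM in the ovary libraries (log2 change -9.63 ± 0.09, adjusted p = 6.8e-11). All 13 tested Mcm and Orc genes, which license and open origins, were 4-fold higher in ovary. Mcm5 averaged 0.800 ± 0.0746 CPM in brain and 202 ± 0.564 CPM in ovary (log2 change -7.97 ± 0.08, adjusted p = 8.0e-11), and Orc1 averaged 1.19 ± 0.112 CPM in brain and 266 ± 10.4 CPM in ovary (log2 change -7.80 ± 0.09, adjusted p = 1.1e-10). dup, the licensing factor, averaged 7.14 ± 0.378 CPM in brain and 333 ± 6.06 CPM in ovary. The sliding clamp gene PCNA averaged 0.889 ± 0.0735 CPM in brain and 133 ± 0.748 CPM in ovary.

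Mitotic genes were higher in ovary as well. Of 60 tested cyclin, mitosis and checkpoint genes, 4 were higher in brain, 55 were higher in ovary, 45 of them 4-fold, and the median log2 change was -3.63. CycB had 1.23 and 1.03 CPM in the brain libraries, against 2921, 3069.7 and 2902 CPM in the ovary libraries (log2 change -11.35 ± 0.12, adjusted p = 7.5e-11). CycA averaged 3.94 ± 0.415 CPM in brain and 979.7 ± 48.9 CPM in ovary. The mitotic phosphatase gene stg averaged 2.43 ± 0.322 CPM in brain and 363 ± 24.6 CPM in ovary, and fzy, which activates the anaphase-promoting complex, averaged 0.401 ± 0.151 CPM in brain and 106 ± 3.96 CPM in ovary. The 3 best expressed members that were higher in brain were CycG with 1239 ± 6.80 CPM in brain and 823 ± 27.1 CPM in ovary, a direction that turned with library size alone, the centrosome gene cnn with 322 ± 8.88 CPM in brain and 149 ± 6.44 CPM in ovary (log2 change 1.12 ± 0.05, adjusted p = 2.5e-07), and the condensin gene Cap-H2 with 80.6 ± 3.22 CPM in brain and 39.8 ± 1.42 CPM in ovary.

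Histone RNA was higher in ovary in every replication-dependent class. Since copies of a class are near identical, the division of reads between copies is uncertain and sums over a class are given. Histone H3 copies summed to 51.7 and 60.4 CPM in the brain libraries, against 2487, 3283 and 2403 CPM in the ovary libraries. Histone H2A copies summed to 147 and 170.0 CPM in brain, against 2321, 2538 and 2369 CPM in ovary. Histone H4 copies kept a higher brain level, 466 and 516 CPM, against 2387, 3019 and 2419 CPM in ovary, as did linker histone H1 copies, 349 and 481 CPM in brain, against 1231, 1122 and 1260.2 CPM in ovary. Over all 111 copies the ratio of ovary to brain was 9.03. These messages lack a poly(A) tail, and depletion of ribosomal RNA keeps such RNA in a library. The replacement histone gene His3.3B, used outside replication, went the other way, with 1421 and 1408 CPM in the brain libraries, against 586, 552 and 584 CPM in the ovary libraries (log2 change 1.30 ± 0.05, adjusted p = 9.7e-08). Its relative His3.3A was called higher in ovary, at 59.0 CPM in brain and 108 CPM in ovary (log2 change -0.87 ± 0.08, adjusted p = 1.6e-05). So was His2Av, at 58.9 CPM in brain and 301 CPM in ovary. Of 6 listed variant and linker histone genes, 2 were called higher in brain and 4 in ovary. The embryonic linker histone gene BigH1 averaged 0.0444 ± 0.0205 CPM in brain and 263 ± 21.7 CPM in ovary.

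Genes that act in follicle cells, many of which are known from other epithelia and from neurons too, were called in both directions. Of 34 tested genes, 17 were called higher in brain and 14 in ovary, 8 and 6 of them 4-fold, shares near the 46.6%, 43.8%, 27.8% and 14.3% of all tested genes. Their median log2 change was 0.14, and it turned to -0.21 with upper-quartile scaling and -0.46 with library size alone. The regulator of follicle cell identity tj had 46.4 and 38.8 CPM in the brain libraries, against 157, 159 and 158 CPM in the ovary libraries (log2 change -1.89 ± 0.08, adjusted p = 1.0e-07). The border cell factor slbo averaged 0.266 ± 0.0808 CPM in brain and 3.45 ± 0.122 CPM in ovary, and E-cadherin, shg, averaged 58.1 ± 4.28 CPM in brain and 313 ± 13.2 CPM in ovary (log2 change -2.43 ± 0.07, adjusted p = 1.0e-08). Cad74A, a cadherin gene of the follicle cells, had 0.419 and 0.235 CPM in the brain libraries, against 211, 193 and 229.6 CPM in the ovary libraries (log2 change -9.32 ± 0.17, adjusted p = 7.6e-10). Among those higher in brain, ct averaged 886 ± 18.1 CPM in brain and 21.4 ± 0.993 CPM in ovary, the epidermal growth factor ligand processor gene rho had 165 and 178 CPM in the brain libraries, against 1.54, 1.76 and 1.21 CPM in the ovary libraries, and bun averaged 1602 ± 9.72 CPM in brain and 269 ± 8.88 CPM in ovary.

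Genes of the nurse cell ring canals and the ovarian cytoskeleton were likewise mixed. Of 37 tested genes, 11 were higher in brain and 23 in ovary, beside 46.6% and 43.8% of all tested genes. By 4-fold, 2 (5.41%) were higher in brain and 9 (24.3%) in ovary, beside 27.8% and 14.3% of all tested genes. The median log2 change was -1.04. The villin gene qua, which bundles nurse cell actin, had 0.209 and 0.176 CPM in the brain libraries, against 167, 169 and 175 CPM in the ovary libraries (log2 change -9.75 ± 0.11, adjusted p = 8.9e-11). The cofilin gene tsr averaged 59.6 ± 2.77 CPM in brain and 464 ± 6.31 CPM in ovary, and cher, the filamin of the ring canal, averaged 90.2 ± 16.8 CPM in brain and 393 ± 3.70 CPM in ovary. The microtubule-actin linker gene shot had 4387 and 4094 CPM in the brain libraries, against 614, 624 and 620.5 CPM in the ovary libraries (log2 change 2.77 ± 0.06, adjusted p = 2.1e-09). Each brain library of shot was above each ovary library, and the actin nucleators capu (154 ± 1.81 CPM in brain and 40.4 ± 3.82 CPM in ovary) and spir (657 ± 2.64 CPM in brain and 203 ± 9.54 CPM in ovary), known for their role in the oocyte, were called higher in brain too.

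In some gene families, relatives were called in opposite directions. Of 32 listed families with at least 2 tested members, this held for 14. With 46.6% of all tested genes called higher in brain and 43.8% in ovary, opposite calls are common among unrelated genes too. Whether families differ from unrelated genes in this was not tested. The V-ATPase and innexin members given here were picked from longer families after their values were seen. The sodium pump has a shared catalytic subunit and 3 beta subunits in this comparison. nrv2 had 1724 and 1845 CPM in the brain libraries, against 16.0, 15.2 and 15.1 CPM in the ovary libraries, nrv3 averaged 2116 ± 53.7 CPM in brain and 0.0999 ± 0.127 CPM in ovary, and nrv1 had 25.5 and 22.3 CPM in the brain libraries, against 291, 301 and 287 CPM in the ovary libraries (log2 change -3.62 ± 0.08, adjusted p = 1.6e-09). Thus nrv2 and nrv3 were higher in each brain library and nrv1 in each ovary library. The catalytic V-ATPase subunit Vha68-1 averaged 1131 ± 13.1 CPM in brain and 2.25 ± 0.817 CPM in ovary (log2 change 8.97 ± 0.16, adjusted p = 9.3e-10), while Vha68-2 averaged 188 ± 8.88 CPM in brain and 549 ± 14.4 CPM in ovary (log2 change -1.54 ± 0.06, adjusted p = 4.7e-08). The proton channel subunits Vha100-1 and Vha100-2 split likewise, at 941 CPM in brain and 148 CPM in ovary for Vha100-1 and 70.3 CPM in brain and 314 CPM in ovary for Vha100-2.

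RNA-binding protein families held members that differed in either direction. orb2, the CPEB protein of long-term memory, averaged 819 ± 3.81 CPM in brain and 44.7 ± 2.65 CPM in ovary (log2 change 4.19 ± 0.06, adjusted p = 2.6e-10), and orb, the CPEB protein of oogenesis, averaged 284 ± 6.20 CPM in brain and 469 ± 43.1 CPM in ovary (log2 change -0.73 ± 0.08, adjusted p = 4.8e-05). Of the Bruno genes, bru3 averaged 782 ± 8.72 CPM in brain and 1.56 ± 0.245 CPM in ovary, bru2 22.3 ± 3.19 CPM in brain and 9.78 ± 0.885 CPM in ovary and bru1 140.4 ± 1.48 CPM in brain and 934 ± 65.5 CPM in ovary (log2 change -2.73 ± 0.08, adjusted p = 8.8e-09). The ELAV family genes elav, fne and Rbp9 were all 4-fold higher in brain. Among Argonaute genes, AGO1, which carries microRNAs, averaged 989 ± 31.2 CPM in brain and 286 ± 20.5 CPM in ovary (log2 change 1.79 ± 0.07, adjusted p = 6.1e-08), opposite to the PIWI genes.

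Other families held a member of wide use and an ovarian one. alphaTub67C, a maternal tubulin, averaged 1.36 ± 0.0680 CPM in brain and 353 ± 9.74 CPM in ovary (log2 change -8.01 ± 0.08, adjusted p = 7.5e-11), while alphaTub84B averaged 959.8 ± 0.405 CPM in brain and 1315 ± 46.8 CPM in ovary. gammaTub37C averaged 0.0595 ± 0.0426 CPM in brain and 91.3 ± 4.34 CPM in ovary and gammaTub23C 29.7 ± 1.73 CPM in brain and 53.0 ± 2.76 CPM in ovary. The importin alpha gene Pen had 0.359 and 0.353 CPM in the brain libraries, against 486, 420.3 and 488 CPM in the ovary libraries (log2 change -10.33 ± 0.15, adjusted p = 2.1e-10), against 221 CPM in brain and 505 CPM in ovary for Kap-alpha3 and 121 CPM in brain and 204 CPM in ovary for Kap-alpha1. Of the ribosomal protein S5 genes, RpS5b had 1.11 and 0.735 CPM in the brain libraries, against 733, 779.6 and 682 CPM in the ovary libraries (log2 change -9.63 ± 0.15, adjusted p = 2.8e-10), while RpS5a averaged 240.1 ± 10.7 CPM in brain and 767 ± 80.0 CPM in ovary, so that both copies had similar levels in ovary. The division of reads between these related copies is uncertain. Innexin genes divided into shakB, a gap junction protein of neurons, with 452 ± 23.2 CPM in brain and 0.883 ± 0.385 CPM in ovary, and zpg, the germline innexin, with 0.0149 ± 0.0211 CPM in brain and 146 ± 9.22 CPM in ovary.

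Most genes for making, folding and degrading proteins were higher in ovary. All 86 tested cytoplasmic ribosomal protein genes were called higher in ovary, against 43.8% of tested genes, yet only 5 reached 4-fold, and the median log2 change was -1.36, between -1.23 and -1.96 under the other scalings tried. RpL3 had 721 and 677 CPM in the brain libraries, against 1886, 2095 and 1805 CPM in the ovary libraries (log2 change -1.46 ± 0.08, adjusted p = 5.9e-07). The elongation factor gene eEF1alpha1 had 1499.9 and 1354 CPM in the brain libraries, against 11640.3, 12867 and 11376 CPM in the ovary libraries (log2 change -3.07 ± 0.10, adjusted p = 1.7e-08), the largest CPM of a gene in ovary. The chaperonin that folds actin and tubulin was higher still in ovary, with all 8 CCT genes 4-fold higher and a median log2 change of -3.30. CCT2 had 68.1 and 77.3 CPM in the brain libraries, against 1150.2, 1249.5 and 1095 CPM in the ovary libraries (adjusted p = 3.3e-09). Of 36 tested proteasome subunit genes, 2 were called higher in brain and 33 in ovary (median log2 change -2.08), 23 of the 33 by 4-fold, a count of 15 with relative log expression and with DESeq2. The 2 higher in brain were Rpn12R, with 1.16 CPM in brain and no counts in ovary, and Rpn13R, with 5.48 CPM in brain and 0.300 CPM in ovary, both by 4-fold. Of 36 tested translation initiation factor genes, 3 were higher in brain, 29 in ovary and 4 were not called. By 4-fold, 1 (2.78%) was higher in brain and 4 (11.1%) in ovary, beside 27.8% and 14.3% of all tested genes. All 21 nucleoporin genes were higher in ovary, 15 of them 4-fold (median log2 change -2.32), among them Nup358 with 265 ± 20.2 CPM in brain and 1073 ± 28.9 CPM in ovary.

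Heat shock genes were called in both directions. Of 17 tested genes, 4 were higher in brain (all 4 by 4-fold), 7 were higher in ovary (5 of them 4-fold) and 6 were not called. The median log2 change was -0.32. Of all tested genes, 46.6% were called higher in brain and 43.8% in ovary, with 27.8% and 14.3% by 4-fold. The 4 higher in brain were Hsp67Ba (51.8 CPM in brain and 0.989 CPM in ovary), Hsp67Bc (13.4 CPM in brain and 0.147 CPM in ovary), Hsp68 (18.5 CPM in brain and 4.26 CPM in ovary) and Hsp70Bb. The edgeR call of Hsp68 was lost with upper-quartile scaling, with library size alone, without the filter, without brain library 2 (adjusted p = 0.061) and without any 1 ovary library (0.10 to 0.12), and that of Hsp70Bb without any 1 ovary library (0.089 to 0.11). The small heat shock gene Hsp26 had 3.98 and 17.3 CPM in the brain libraries, against 1005, 1005 and 980.0 CPM in the ovary libraries (log2 change -6.55 ± 0.75, adjusted p = 0.0021), and Hsp27 averaged 7.30 ± 4.53 CPM in brain and 646 ± 32.3 CPM in ovary. Hsp83, the fly Hsp90, had 581 and 927 CPM in the brain libraries, against 3924, 4029.7 and 3785 CPM in the ovary libraries (log2 change -2.37 ± 0.21, adjusted p = 5.7e-05). These 3 genes were higher in every ovary library, while the heat-induced genes Hsp70Aa and Hsp70Bb differed between the brain libraries, as described below.

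Nuclear genes of oxidative phosphorylation were mostly higher in brain by less than 4-fold. Of 67 tested nuclear oxidative phosphorylation subunit genes, 55 were called higher in brain, 1 in ovary and 11 were not called, against 46.6% of tested genes higher in brain, and 6 (8.96%) were 4-fold higher in brain, below the 27.8% of all tested genes. The median log2 change was 0.79, and it stayed positive, at 0.19, with library size alone. ND-75, a complex I subunit gene, averaged 465 ± 9.14 CPM in brain and 269 ± 20.9 CPM in ovary (log2 change 0.79 ± 0.07, adjusted p = 9.8e-06), and SdhA, of complex II, averaged 449.6 ± 4.38 CPM in brain and 254 ± 20.9 CPM in ovary (log2 change 0.82 ± 0.07, adjusted p = 8.8e-06). Of the 13 genes of the mitochondrial genome, 8 were called higher in brain and none in ovary, beside 46.6% and 43.8% of all tested genes. None of the 13 was called by 4-fold. mt:CoI had 5437 and 5216 CPM in the brain libraries, against 2509, 2044 and 2612 CPM in the ovary libraries (log2 change 1.16 ± 0.11, adjusted p = 1.3e-05). The mitochondrial ribosomal protein genes ran the other way, with 3 of 73 higher in brain, 62 higher in ovary and none at 4-fold (median log2 change -0.74). The vacuolar ATPase, which acidifies synaptic vesicles and endosomes, had 19 of 22 tested subunit genes higher in brain and 2 in ovary (median log2 change 1.34), with 6 of the 22 (27.3%) 4-fold higher in brain, beside 27.8% of all tested genes.

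A minority of genes stood at like level in both tissues. For 1178 genes (12.2%), the 95% interval of the log2 change lay within 0.5 of 0. They held 9.94% and 10.1% of the brain counts, against 15.1%, 14.7% and 15.2% of the ovary counts. The most abundant by mean CPM included the mitochondrial ADP/ATP carrier sesB with 1496 ± 22.1 CPM in brain and 1430.4 ± 76.0 CPM in ovary (log2 change 0.06 ± 0.06), the ATP synthase subunit genes blw with 1320.3 ± 36.8 CPM in brain and 1379.8 ± 116 CPM in ovary and ATPsynC with 1375 ± 49.7 CPM in brain and 1315 ± 78.1 CPM in ovary, and NAT1, a translation regulator, with 1085 ± 0.458 CPM in brain and 1162 ± 49.7 CPM in ovary. The chromatin factor lola was also in this group although it was called, at 1589.9 ± 27.8 CPM in brain and 2032 ± 59.2 CPM in ovary (log2 change -0.35 ± 0.06, adjusted p = 6.0e-04). Which genes count as like level moves with the scaling, and the number was 786 with library size alone.

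Ecdysone genes were called in both directions in shares near those of all tested genes, and their shares of 4-fold calls were above those of all tested genes. The 5 biosynthesis genes nvd, spo, phtm, dib and sad, which turn cholesterol into the steroid, were each called higher in ovary. spo had no counts in the brain libraries, against 13.7, 14.7 and 14.2 CPM in the ovary libraries (at least 319-fold higher in ovary, adjusted p = 6.3e-08), and phtm averaged 0.372 ± 0.193 CPM in brain and 8.80 ± 0.464 CPM in ovary (log2 change -4.55 ± 0.29, adjusted p = 1.4e-06). The receptor and several early response genes were higher in brain. The receptor gene EcR had 426 and 409.9 CPM in the brain libraries, against 127, 115 and 127 CPM in the ovary libraries (log2 change 1.76 ± 0.06, adjusted p = 2.6e-08), and Eip75B averaged 878 ± 15.1 CPM in brain and 206 ± 6.81 CPM in ovary. The nuclear receptor gene Hr38 averaged 408 ± 124 CPM in brain and 0.0920 ± 0.0685 CPM in ovary (log2 change 12.09 ± 0.42, adjusted p = 3.3e-06). Not all response genes did this, as Hr4 (7.95 CPM in brain and 54.0 CPM in ovary) and the transporter gene E23 (44.3 CPM in brain and 173 CPM in ovary) were higher in ovary. Over the list of 24 tested genes, 12 were higher in brain and 11 in ovary, beside 46.6% and 43.8% of all tested genes. By 4-fold, 9 (37.5%) were higher in brain and 6 (25%) in ovary, beside 27.8% and 14.3% of all tested genes. The median log2 change was 0.18, and it turned to -0.17 with upper-quartile scaling and -0.42 with library size alone.

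Insulin and nutrient sensing genes, peptides included, were called in both directions. Of 23 tested genes, 11 were called higher in brain and 10 in ovary, beside 46.6% and 43.8% of all tested genes. By 4-fold, 4 (17.4%) were higher in brain, all 4 of them insulin-like peptide genes, and none was higher in ovary. The 4-fold shares of all tested genes were 27.8% and 14.3%. The receptor gene InR averaged 188 ± 0.420 CPM in brain and 122 ± 9.25 CPM in ovary (log2 change 0.62 ± 0.07, adjusted p = 4.0e-05), a call lost with library size alone, and the inhibited target foxo averaged 54.5 ± 1.33 CPM in brain and 118 ± 5.42 CPM in ovary (log2 change -1.11 ± 0.06, adjusted p = 4.3e-07). The list median, with the peptide genes, was -0.0088 and changed sign under several settings.

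Chromatin silencing genes were for the most part higher in ovary, by modest amounts. Of 22 tested genes for H3K9 methylation, HP1 proteins and silencing, 3 were higher in brain, 17 were higher in ovary and 2 were not called. Of all tested genes, 46.6% were higher in brain and 43.8% in ovary. The median log2 change of the list was -0.71. By 4-fold, 3 genes (13.6%) were higher in ovary, near the 14.3% of all tested genes. The 3 were rhi, the methyltransferase gene Su(var)3-9 with 8.24 ± 0.366 CPM in brain and 44.8 ± 1.12 CPM in ovary, and HDAC1 with 62.4 ± 3.99 CPM in brain and 280.3 ± 5.68 CPM in ovary. G9a averaged 240.1 ± 0.713 CPM in brain and 576 ± 41.4 CPM in ovary (log2 change -1.26 ± 0.07, adjusted p = 6.0e-07). The corepressor gene Sin3A averaged 914 ± 4.10 CPM in brain and 571 ± 34.0 CPM in ovary (log2 change 0.68 ± 0.06, adjusted p = 1.5e-05), a call lost with library size alone. Of 24 tested Polycomb group genes, 10 were higher in brain and 13 in ovary (median log2 change -0.39), near the 46.6% and 43.8% of all tested genes. The neighbouring Polyhomeotic copies, whose reads may have been divided unevenly, differed in size of change, ph-p with 202 and 209 CPM in the brain libraries, against a mean of 10.3 ± 1.64 CPM in ovary (log2 change 4.32 ± 0.10, adjusted p = 3.4e-09) and ph-d with 156 ± 1.58 CPM in brain and 71.9 ± 3.42 CPM in ovary. Of the related genes Psc and Su(z)2, Psc averaged 39.7 ± 2.75 CPM in brain and 78.7 ± 5.12 CPM in ovary and Su(z)2 averaged 194 ± 1.71 CPM in brain and 17.7 ± 2.65 CPM in ovary, in opposite directions.

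Cytochrome P450 genes, which act on steroids and foreign compounds, were mostly higher in brain. Of 60 tested genes, 34 (56.7%) were 4-fold higher in brain and 6 (10%) in ovary, beside 27.8% and 14.3% of all tested genes. The exception of highest level was Cyp6a19, with 0.209 and 0.0588 CPM in the brain libraries, against 349, 375 and 345 CPM in the ovary libraries (log2 change -11.33 ± 0.17, adjusted p = 2.7e-10). Cyp4g15, an oxidase of glia and other brain cells, averaged 284 ± 40.1 CPM in brain and 1.59 ± 0.111 CPM in ovary. Of the odorant-binding protein genes, Obp44a was the most abundant in brain, while Obp19c had 0.120 and 0.0588 CPM in the brain libraries, against 136, 127 and 126 CPM in the ovary libraries (log2 change -10.43 ± 0.14, adjusted p = 1.8e-10), high in ovary. The dosage compensation gene msl-2, whose protein is made in males, was detected in these females at 124 ± 2.92 CPM in brain and 9.69 ± 0.933 CPM in ovary (log2 change 3.68 ± 0.08, adjusted p = 1.4e-09).

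Genes of chromosome 4 were called higher in brain more often than those of the other arms. Of 76 tested genes on this small chromosome, 41 (53.9%) were 4-fold higher in brain and none was 4-fold higher in ovary, while on the other arms the share higher in brain was 24.3% (X) to 29.7% (2L) and the share higher in ovary 13.4 to 16.2%. At an adjusted p under 0.05 alone, 66 of the 76 were called higher in brain, 7 in ovary and 3 were not called, and the median log2 change was 2.68. Median levels of chromosome 4 genes were 267 and 269 CPM in the brain libraries, against 40.2, 33.7 and 32.6 CPM in the ovary libraries. For tested genes elsewhere the median of the means was 27.5 CPM in brain and 27.7 CPM in ovary. Under the other settings tried, 39 to 42 chromosome 4 genes were 4-fold higher in brain and 0 to 2 in ovary. A test against a fold of 2 was not part of this range. unc-13, described above, lies on chromosome 4.

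Shares also differed with gene span. Among tested genes that span up to 2 kb, from start to end with introns, 21.4% were 4-fold higher in brain and 17.7% in ovary, and among those over 50 kb 65.0% were 4-fold higher in brain and 4.76% in ovary. The genes 4-fold higher in brain had a median span of 4901 bases and those 4-fold higher in ovary 2300.0 bases, beside 2971 over all tested genes. Chromosome 4 genes are long, with a median span of 10.5 kb, against 2.95 kb elsewhere. Within span classes, the share 4-fold higher in brain on chromosome 4 against elsewhere was 50.0% against 27.8% at 5 to 10 kb, 63.0% against 38.5% at 10 to 20 kb and 84.6% against 59.3% over 20 kb. At up to 5 kb it was 14.3% of 14 genes on chromosome 4, against 21.0% of 6365 elsewhere. These shares were not tested, and genes of an arm are not independent of each other.

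**Figure D4:**
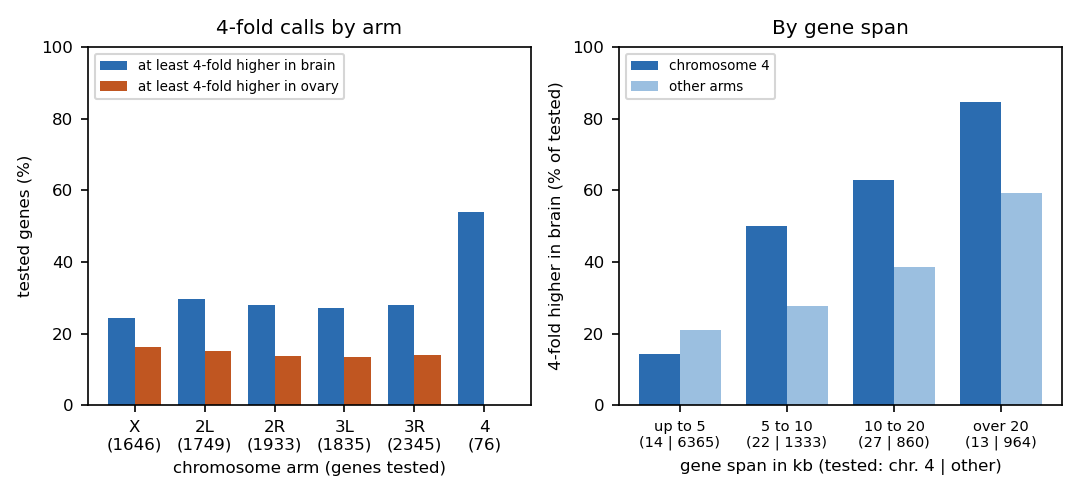
Left, percent of tested genes of each chromosome arm that were 4-fold higher in brain (blue) or in ovary (orange), with the number tested in brackets; right, percent of tested genes 4-fold higher in brain by gene span in kb, for chromosome 4 (dark) and the other arms (light). Chromosome 4 stands at 53.9% in blue with no orange bar, and its bars exceed those of the other arms in the 3 classes above 5 kb.

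Few genes of high level differed between libraries of a tissue. Of 3712 genes at a mean of at least 50 CPM in brain, 24 differed by more than 1.5-fold between the brain libraries, and of 3579 such genes in ovary 10 differed by more than 1.5-fold between the lowest and highest ovary library. In brain they included the eye genes ninaE, trp (118 and 53.3 CPM in the brain libraries, against 0, 0.0607 and 0 CPM in the ovary libraries) and trpl, the heat shock genes Hsp70Aa (33.4 and 243 CPM in the brain libraries, against 48.3, 21.2 and 30.9 CPM in the ovary libraries) and Hsp70Bb (22.2 and 146 CPM in the brain libraries, against 0.512, 4.85 and 3.22 CPM in the ovary libraries), near-identical copies, the clock genes tim and vri, and the fat body storage protein gene Lsp2 (845 and 495 CPM in the brain libraries, against 9.38, 35.5 and 1.48 CPM in the ovary libraries). Photoreceptor and fat body genes were lower in the brain library numbered 2 and heat shock genes were higher there. In ovary they included apolpp and the oenocyte gene Cyp4g1 (2.12 and 2.09 CPM in the brain libraries, against 127, 269 and 59.2 CPM in the ovary libraries), both lowest in ovary library 3, as was Yp3. The others were the histone copies His2B:CG17949, the widest at 58.6, 249 and 422 CPM in the ovary libraries, and His2B:CG33902, together with Gyc76C, CG17327, CG3168, RpL34a and Adh. Leaving out 1 library ended the edgeR calls of several of these genes. The adjusted p was 0.051 to 0.077 for ninaE and 0.089 to 0.11 for Hsp70Bb without any 1 ovary library, 0.055 and 0.070 for Lsp2 without brain library 1 and without ovary library 1, and 0.059 and 0.058 for Cyp4g1 without brain library 1 and without brain library 2. Without ovary library 2 it was 0.099 for trp and 0.072 for vri. The edgeR call of Lsp2 was also lost with the replicate number as a block (adjusted p = 0.082).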

How the data were processed

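Ribosomal RNA-depleted total RNA of 2 wild-type brain and 3 wild-type ovary libraries was sequenced after preparation with a directional kit, per the labels' protocols. The authors deposited 1 table of estimated counts per gene for each tissue. Trim Galore 0.6.2, Salmon 1.2.1 and the build dm3 are named in the submitters' processing notes. The strand setting of the counting step is not stated there, so overlapping and antisense genes are uncertain, as are near-identical copies. Totals were 43329287 and 43359329 in brain and 14099168 to 18765624 in ovary. The tables were joined on gene ID. Estimated counts were rounded to whole numbers, since 9.50% and 9.97% of brain values and 6.93 to 7.18% of ovary values were not whole. Of 13955 genes, 13661 were matched by ID and 241 by symbol or synonym to a later annotation (BDGP6), used for names, chromosome arms and lengths only. That build differs from the deposited one, so no coordinates and no sequences are given.

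Genes were filtered with filterByExpr, scaled by TMM and tested for brain minus ovary with the robust quasi-likelihood fit of edgeR 4.0.16 (R 4.3.3, limma 3.58.1) on these 5 libraries, and p-values were adjusted by Benjamini-Hochberg over 9621 genes. A like level means that the 95% interval of the log2 change lies within ±0.5. The test was also run on simulated counts with known changes, in which most genes had the same mean in both tissues. Most genes differed in the real data, so that run cannot show how scaling and test behave here. Where a tissue had 0 counts, the fold is given as a minimum, computed against 3 counts summed over that tissue. With 1 to 3 counts it is a ratio with an exact 95% interval, and both cover counting error only. Alternatives were DESeq2 1.42.0, 4 other scalings, no filter, the replicate number as a block, unrounded counts, thinning to the shallowest library, a test against a fold of 2 and leaving out each library. Every pair of libraries of a tissue differed by more than sampling noise (5.68 to 19.3 as chi-square over its degrees of freedom), and all 5 were kept.

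The gene lists, families and rules were chosen with earlier results of these data known, and lists carry no test. Named genes are, per direction, the 10 of largest change among called genes with at least 50 CPM in the higher tissue and no overlap. Also named are the 10 protein-coding genes per tissue of highest level per kb, the mitochondrial genome left out. Per list, they are up to 4 called members of highest level and up to 3 called against the list's known side. Members of the gene families discussed are named too, with, per direction, the 5 transcription factor genes of largest change. The last are 8 genes that check the labels, with CG11247, and the 10 like-level genes of highest mean CPM. A planned rule for long noncoding RNA genes was not applied, and only lncRNA:noe of them is named. Other genes were named after their values were seen, for their roles in a list.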

Additional observations from a re-analysis of the deposited data

How the results depend on the processing

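The counts of calls kept their size under nearly every alternative. The test against a fold was not part of the counts and ranges given here. Genes 4-fold higher in brain numbered 2670, with 2383 to 3274 under the alternatives, and genes 4-fold higher in ovary numbered 1375, with 1263 to 1732 under all but library size alone, which gave 2066. Leaving out each library in turn gave 2652 to 2680 genes 4-fold higher in brain and 1367 to 1393 in ovary, and DESeq2 gave 2753 and 1269. Of 276 named and tested genes, 247 kept their side of the threshold under every alternative counted, with direction kept where they were called. A turn of sign in a gene that stayed uncalled was not counted as a change. The genes counted as reversed turned under upper-quartile scaling or library size alone, which shift all genes toward ovary. With library size alone the log2 change turned to -0.11 for BicD, -0.012 for CycG and -0.033 for wde. With upper-quartile scaling and library size alone it turned to -0.13 and -0.39 for Gasz, and genes not called under TMM turned to -0.29 and -0.54 for ATPsynC, -0.28 and -0.54 for sesB, -0.20 and -0.46 for chif and -0.19 and -0.44 for tud. List medians turned for follicle cell genes (-0.21 and -0.46) and ecdysone genes (-0.17 and -0.42) under the same scalings. The median of insulin genes, -0.0088, turned to 0.12 with relative log expression and with DESeq2, 0.0084 without the filter, and 0.029 with the replicate block, and ran from -0.060 to 0.041 when single libraries were left out, above 0 without brain library 1 (0.041) and without ovary library 3 (0.016). The replicate numbers are shared between tissues but nothing says that they pair libraries, and deviations of same-numbered libraries correlated at 0.079 and -0.026. The fit with this replicate block called 4373 genes higher in brain and 4051 higher in ovary, with 945 at like level. Ovary libraries are shallower than brain libraries, which limits low levels there. Thinning all libraries to the shallowest gave 2548 and 1423 genes 4-fold higher in brain and in ovary.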

Other observations

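Of 18 tested kinesin genes, 7 were called higher in brain and 9 in ovary, 3 and 8 of them 4-fold, beside 46.6% and 43.8% called and 27.8% and 14.3% at 4-fold of all tested genes. unc-104, the kinesin that carries synaptic vesicle precursors, had 4468 and 4416 CPM in the brain libraries, against 60.2, 63.3 and 62.4 CPM in the ovary libraries (log2 change 6.16 ± 0.07, adjusted p = 8.5e-11), and Khc, the conventional kinesin heavy chain, averaged 241 ± 7.66 CPM in brain and 331 ± 8.20 CPM in ovary (log2 change -0.45 ± 0.05, adjusted p = 5.1e-05). The dynein heavy chain gene Dhc64C averaged 2624 ± 42.4 CPM in brain and 1324 ± 40.5 CPM in ovary, and the dynein light chain gene ctp averaged 844 ± 8.29 CPM in brain and 220.1 ± 4.62 CPM in ovary (log2 change 1.94 ± 0.05, adjusted p = 4.6e-09). Rab3, a GTPase of synaptic vesicles, averaged 833 ± 9.51 CPM in brain and 0.139 ± 0.0714 CPM in ovary (log2 change 12.47 ± 0.12, adjusted p = 6.8e-11), while Rab11, of recycling endosomes, averaged 183 ± 0.265 CPM in brain and 244 ± 6.41 CPM in ovary (log2 change -0.41 ± 0.05, adjusted p = 7.0e-05).

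Most chemoreceptor genes had too few counts to test in either tissue. Of 60 odorant, 60 gustatory and 60 ionotropic receptor genes, 8, 5 and 8 passed the filter on low counts. Ir47a averaged 53.8 ± 3.27 CPM in brain and 1.48 ± 0.446 CPM in ovary, and Ir7c ran the other way at 0.163 ± 0.0191 CPM in brain and 28.9 ± 0.263 CPM in ovary (log2 change -7.42 ± 0.13, adjusted p = 6.5e-10). The cap-binding genes split, with eIF4EHP, a translational repressor, at 412 ± 13.5 CPM in brain and 68.3 ± 7.02 CPM in ovary (log2 change 2.59 ± 0.08, adjusted p = 1.9e-08) and eIF4E1 at 182 ± 2.02 CPM in brain and 371 ± 9.56 CPM in ovary (log2 change -1.03 ± 0.05, adjusted p = 2.5e-07). Of the 14-3-3 genes, 14-3-3zeta averaged 2187 ± 28.6 CPM in brain and 374 ± 44.7 CPM in ovary (log2 change 2.55 ± 0.10, adjusted p = 5.7e-08) and 14-3-3epsilon averaged 1043 ± 3.10 CPM in brain and 599.6 ± 20.1 CPM in ovary (log2 change 0.80 ± 0.05, adjusted p = 2.0e-06).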
